A study of Mus musculus with 20 samples.

Results

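Epithelial cell junctions were followed through 10 genes in 20 mouse mammary glands: the claudin genes Cldn1, Cldn3, Cldn4, Cldn7 and Cldn8, the occludin gene Ocln, the connexin genes Gjb2 and Gja1, the E-cadherin gene Cdh1, and Epcam. The 10 were taken by name from 18194 genes with a probe set, and for each the brightest probe set, by mean over the arrays, stood for the gene. All 10 passed a filter that asked for a level above 6.85, the median of all values on the log2 scale, on at least 3 arrays, as did 12499 genes in all. Gjb2 was above that level on 6 arrays and Cldn8 on 12, while the other 8 were above it on 18 to 20. The 6 arrays that carried Gjb2 past the filter were all from placebo animals with later tumors, so its test is not independent of the filter.

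Each array held RNA from 1 number 4 gland without a tumor, taken at 20.5 to 21 weeks of age from a female FVB/N mouse of line 1372-1 TgN(Nrl-tgfalpha)29EPS. Every animal, controls included, was heterozygous for this transgene, in which the neu-related lipocalin promoter drives transforming growth factor alpha (TGFα) in mammary epithelium. Implants given at 8.5 weeks held 5 mg of tamoxifen, a selective oestrogen receptor modulator, or carrier alone, and glands were taken 4 weeks after treatment ended. Observation for mammary tumors then went on to at most 2 years of age. The 4 groups were placebo with a later tumor (7 animals), placebo without (3 animals), tamoxifen without (7 animals) and tamoxifen with a later tumor (3 animals). Animals are named by treatment and number.

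Junctions hold epithelial cells together and seal the milk space from the tissue below. Claudins are four-pass membrane proteins whose loops form the strands of the tight junction, and occludin is a further protein of those strands. E-cadherin is the calcium-dependent adhesion protein of adherens junctions, and Epcam is an epithelial adhesion molecule that binds claudin-7. Connexins form gap junction channels: Gjb2 encodes a connexin that luminal cells raise in pregnancy and lactation, and Gja1 one that myoepithelial and stromal cells carry.

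Glands were bulk tissue, so fewer cells of a type and less RNA per cell cannot be told apart. The first principal component held 31.9% of the variance, and placebo animals 7, 8 and 9, which all developed tumors, had its most extreme scores (-30.94, -41.13 and -14.64, against -7.19 to 12.65 on the other arrays). Values without them, a setting chosen after seeing the data, are given beside the main comparisons. Array medians ran from 6.82 to 6.89. The keratin genes Krt8, Krt18 and Krt19, which mark luminal epithelium, were well above the filter level in every gland, with lowest values of 9.07, 9.44 and 8.77.

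Promoter sequence was read for the members with an entry in the RefSeq table for GRCm38.p6: Epcam, Cldn7, Gjb2, Cldn3, Cldn1, Cldn4, Ocln and Gja1. Cdh1 and Cldn8 have no entry there. Whether promoter sequence bears on the levels was not tested. The 200 bases before each listed start were searched on both strands for CACCTG, which reads CAGGTG on the other strand and is the E-box that repressors of the Snail and Zeb families bind. It was present in 5 of 10 member promoters, against 13.9% of the 32851 promoters of the table. The match is a description of letters and not a measured site. Below are Epcam (chr17:87635779-87635978, plus strand), the downstream of the 2 starts of Cldn7 (chr11:69965221-69965420, plus strand) and Gjb2 (chr14:57104703-57104902, minus strand). They are shown because all 3 hold the motif and belong to the 6 genes called in the 7 against 7 comparison described further on. Cldn3 (chr5:134986014-134986213, plus strand) and Cldn4 (chr5:134946935-134947134, minus strand) are shown because they are neighbors with 0 annotated genes between them, and of the pair only Cldn3 is among the 6; their difference was not tested. Each is written 5′ to 3′ on the gene's strand and ends at the base before the start, with the motif in capitals.
Epcam: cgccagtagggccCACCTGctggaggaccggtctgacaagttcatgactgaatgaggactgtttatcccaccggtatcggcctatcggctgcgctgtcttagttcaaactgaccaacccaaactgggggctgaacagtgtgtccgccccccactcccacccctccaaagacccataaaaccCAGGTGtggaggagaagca
Cldn7: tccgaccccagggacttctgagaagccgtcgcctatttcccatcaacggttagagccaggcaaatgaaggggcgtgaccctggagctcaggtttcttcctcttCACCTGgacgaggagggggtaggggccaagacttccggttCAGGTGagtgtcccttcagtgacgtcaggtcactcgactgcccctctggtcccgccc
Gjb2: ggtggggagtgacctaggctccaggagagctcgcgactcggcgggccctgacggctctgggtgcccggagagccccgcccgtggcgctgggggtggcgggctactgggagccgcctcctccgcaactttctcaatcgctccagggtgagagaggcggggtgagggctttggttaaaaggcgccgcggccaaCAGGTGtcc
Cldn3: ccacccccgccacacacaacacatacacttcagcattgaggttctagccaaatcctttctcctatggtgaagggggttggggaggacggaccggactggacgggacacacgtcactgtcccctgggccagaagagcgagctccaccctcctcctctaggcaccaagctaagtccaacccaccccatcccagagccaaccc
Cldn4: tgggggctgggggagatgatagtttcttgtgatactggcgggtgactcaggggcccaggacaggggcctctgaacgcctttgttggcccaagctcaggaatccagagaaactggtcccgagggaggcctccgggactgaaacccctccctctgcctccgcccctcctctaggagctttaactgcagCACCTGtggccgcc
The motif began 187 and 19 bases before the start of Epcam, 97 and 57 before that of Cldn7, 9 before that of Gjb2 and 14 before that of Cldn4. In Ocln, whose promoter is not shown, it began 68 bases before the downstream start. The shown stretch of Cldn3 did not hold the motif, nor did the upstream start of Cldn7.

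The 10 genes fell into a set that varied widely between glands and a set that varied little. Gjb2 spanned 25.5-fold from its lowest to its highest gland, Cldn7 11.2-fold, Cldn8 10.1-fold, Cdh1 7.61-fold, Epcam 6.72-fold and Cldn3 5.33-fold. Cldn4 spanned 2.8-fold, Gja1 2.23-fold, Cldn1 1.85-fold and Ocln 1.76-fold. Placebo animal 7 was highest for Gjb2, Cldn8, Cdh1, Cldn3, Cldn4, Cldn1 and Ocln, and placebo animal 8 for Cldn7 and Epcam. Gja1 was highest in placebo animal 10.

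**Figure D1:**
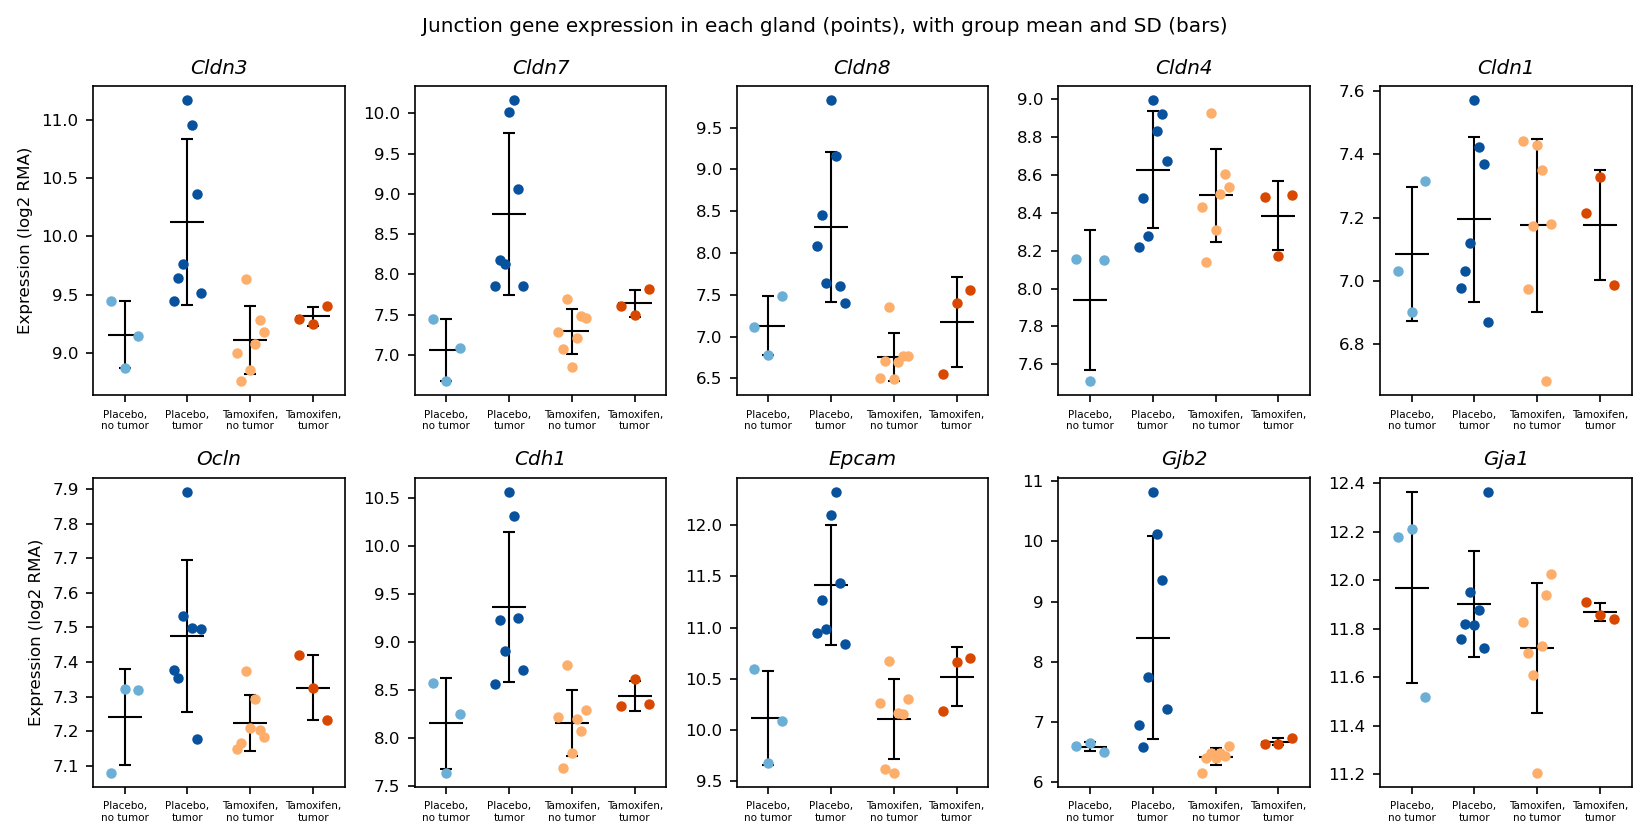
Expression of the 10 junction genes (log2 RMA, vertical axes with their own ranges) in each gland (points) by treatment and later outcome, with the group mean and SD as bars. For Cldn7, Cldn8 and Epcam the 7 placebo glands with later tumors lie above all 7 tamoxifen glands without, and for Gja1 and Cldn1 the 4 groups overlap.

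Among the claudins, Cldn7, the partner of Epcam that also lies along the lateral membrane, showed the widest range. In placebo animals with later tumors its log2 level ran from 7.85 to 10.16 with a median of 8.18, and in placebo animals 3, 5 and 6, without tumors, it was 7.44, 6.68 and 7.08. In tamoxifen animals without tumors it ran from 6.85 to 7.70 with a median of 7.29, and in tamoxifen animals 1, 2 and 10, with tumors, it was 7.61, 7.49 and 7.82. All 7 placebo tumor glands were above every gland of the other 3 groups, narrowly so at 7.85 against 7.82 in tamoxifen animal 10. The share of all genes for which this holds was not counted.

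Cldn3, which encodes a sealing claudin, was likewise highest on average in placebo animals with later tumors. It ran from 9.45 to 11.17 (median 9.76) in placebo animals with later tumors and from 8.76 to 9.64 (median 9.08) in tamoxifen animals without. Its levels were 9.45, 8.87 and 9.15 in placebo animals 3, 5 and 6, and 9.29, 9.25 and 9.41 in tamoxifen animals 1, 2 and 10. The 2 groups of 7 overlapped through tamoxifen animal 5, at 9.64.

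Cldn8, best known as a claudin of tight renal and other epithelia, ran from 7.40 to 9.83 (median 8.09) in placebo animals with later tumors and from 6.49 to 7.36 (median 6.71) in tamoxifen animals without. It was 7.12, 6.78 and 7.49 in placebo animals 3, 5 and 6, and 6.56, 7.40 and 7.56 in tamoxifen animals 1, 2 and 10. Here placebo animal 9, high for the other claudins, was near the bottom of its group, at 7.60.

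Cldn4, the neighbor of Cldn3 on chromosome 5 and also a sealing claudin, stood apart from those 3. Placebo animals without tumors were the lowest group, with 8.16, 7.51 and 8.15 in animals 3, 5 and 6. Placebo animals with later tumors ran from 8.22 to 8.997 (median 8.67), tamoxifen animals without from 8.14 to 8.93 (median 8.50), and tamoxifen animals 1, 2 and 10 were at 8.49, 8.17 and 8.49. The 7 placebo tumor glands were all above the 3 placebo glands without tumors, but they overlapped both tamoxifen groups.

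Cldn1 and Ocln spanned little. Cldn1 averaged 7.19 ± 0.26 (SD, n = 7) in placebo animals with later tumors, 7.08 ± 0.21 (SD, n = 3) in those without, 7.18 ± 0.27 (SD, n = 7) in tamoxifen animals without tumors and 7.18 ± 0.17 (SD, n = 3) in those with. Ocln averaged 7.48 ± 0.22, 7.24 ± 0.14, 7.22 ± 0.08 and 7.32 ± 0.09 (SD) in the same groups and order. All 4 groups overlapped for both genes.

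Cdh1 ran from 8.56 to 10.57 (median 9.23) in placebo animals with later tumors. It was 8.58, 7.64 and 8.25 in placebo animals 3, 5 and 6, ran from 7.69 to 8.76 (median 8.20) in tamoxifen animals without tumors, and was 8.34, 8.62 and 8.36 in tamoxifen animals 1, 2 and 10. Epcam ran from 10.84 to 12.33 (median 11.27) in placebo animals with later tumors, above all 13 other glands, a trait whose share over all genes was not counted. Epcam was 10.59, 9.68 and 10.09 in placebo animals 3, 5 and 6, ran from 9.58 to 10.67 (median 10.17) in tamoxifen animals without tumors, and was 10.19, 10.67 and 10.71 in tamoxifen animals 1, 2 and 10.

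The 2 connexin genes had unlike patterns over the glands. Gjb2 was flat in 3 groups: 6.60, 6.65 and 6.50 in placebo animals 3, 5 and 6, 6.16 to 6.60 (median 6.43) in tamoxifen animals without tumors, and 6.63, 6.64 and 6.74 in tamoxifen animals 1, 2 and 10. In placebo animals with later tumors it ran from 6.58 to 10.83 (median 7.74). Its highest glands were placebo animals 7, 8 and 9, at 10.83, 10.12 and 9.36, and placebo animal 2, at 6.58, was no higher than glands of the other groups. Gja1 ran from 11.72 to 12.37 (median 11.82) in placebo animals with later tumors and was 12.18, 12.21 and 11.52 in placebo animals 3, 5 and 6. It ran from 11.21 to 12.03 (median 11.73) in tamoxifen animals without tumors and was 11.91, 11.86 and 11.84 in tamoxifen animals 1, 2 and 10, so all groups overlapped.

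**Figure D2:**
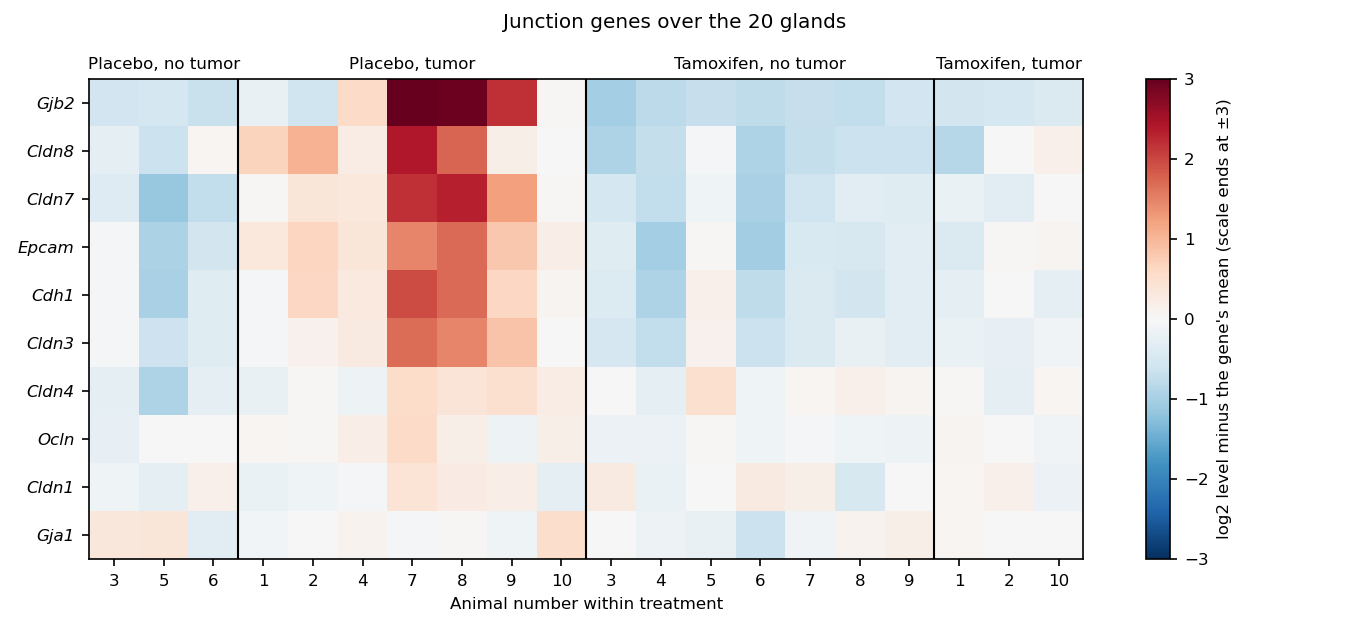
Each cell is the log2 level of a junction gene (rows) in a gland (columns, numbered within treatment) minus the gene's mean over the 20 glands. The top 6 rows share their highest columns, placebo animals 7 and 8, while Gja1 was highest in placebo animal 10.

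Gjb2, Cldn8, Cldn7, Epcam, Cdh1 and Cldn3 are the 6 genes called in the 7 against 7 comparison described below. They were grouped by those calls, so their correlations are not independent of that choice. Over the 20 glands their 15 pairwise Pearson correlations ran from 0.80 to 0.98, and over the 17 glands without placebo animals 7, 8 and 9 they ran from 0.48 to 0.95. These values are descriptions across arrays that share the study's groups. Gja1 correlated with the 6 at 0.03 to 0.16 (0.07 to 0.40 without those 3 animals) and Cldn1 at 0.29 to 0.46 (-0.29 to -0.02). Cldn4 correlated at 0.45 to 0.70 (-0.03 to 0.54) and Ocln at 0.61 to 0.74 (0.47 to 0.73). Without those 3 animals, the ranges of Ocln and Cldn4 overlapped the range among the 6.

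The outcome comparison set 10 animals with later tumors against 10 without. Of those with tumors 7 had placebo, of those without 7 had tamoxifen, and the model held no treatment term. Outcome and treatment are therefore not separated in it, and with treatment as a covariate limma called 0 genes. Of the 10 junction genes 0 passed, where limma called 0.232% of all genes tested at an adjusted p below 0.05 (29 genes). Before adjustment 7 of the 10 were below 0.05, as were 16.5% of all genes. All 10 differences were positive, with a median of 0.84 on the log2 scale, and over all genes tested 45.1% were positive and the median was -0.01. Epcam averaged 11.15 ± 0.66 with a later tumor and 10.11 ± 0.38 without (SD, n = 10 each), a difference of 1.04 ± 0.22 (SE) that just missed the threshold (limma adjusted p = 0.0528). Cldn7 differed by 1.19 ± 0.30 (adjusted p = 0.0824), Cldn8 by 1.10 ± 0.30 (0.0937), Cdh1 by 0.93 ± 0.25 (0.0947) and Cldn3 by 0.75 ± 0.22 (0.112). Gjb2 had the largest difference and the largest error, 1.41 ± 0.47 (SE, adjusted p = 0.15). For Epcam, Cldn7, Cldn3, Cdh1 and Gjb2, 10 of 10 animals with later tumors were above the median of those without, though the ranges overlapped for all 10 genes (0.024% of all genes were higher without overlap).

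Leaving out 1 animal moved the outcome count to between 0 and 3. Without tamoxifen animal 1, Epcam, Cldn7 and Cldn8 passed (limma adjusted p = 0.0193, 0.0489 and 0.0335). Without tamoxifen animal 2, Epcam and Cldn7 passed, and without tamoxifen animal 10 or placebo animal 3, Epcam alone passed. Calls over all genes rose too, from 29 to 118 and 103 without tamoxifen animals 1 and 2, 81 without tamoxifen animal 10 and 84 without placebo animal 3. Each of these animals came from one of the smaller groups, and leaving it out ties outcome more closely to treatment. Leaving out placebo animal 5 or 6, from the same group as placebo animal 3, brought no member past the threshold. Why the calls rose was not tested. Without placebo animals 7, 8 and 9 the differences were 0.69 for Epcam, 0.62 for Cldn7, 0.72 for Cldn8, 0.52 for Cdh1, 0.35 for Cldn3 and 0.45 for Gjb2, and 0 members passed, as did 0.0565% of all genes.

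Cldn4 (0.23 ± 0.14 SE, adjusted p = 0.426), Gja1 (0.10 ± 0.11 SE, 0.691) and Cldn1 (0.04 ± 0.10 SE, 0.881) had outcome intervals that included 0. The 95% intervals from limma ran from -0.07 to 0.52 for Cldn4, from -0.13 to 0.32 for Gja1 and from -0.17 to 0.25 for Cldn1, which leaves room for differences of that size. Ocln differed by 0.20 ± 0.07 (SE, adjusted p = 0.15) in its brighter probe set. A second Ocln probe set, dim at a mean of 5.11, differed by 0.61 ± 0.17 (SE, adjusted p = 0.0938). The second probe set of Epcam also gave another size, 0.18 ± 0.06 (SE, adjusted p = 0.138). The 3 other probe sets of Cldn3 gave 0.99 to 1.04, and the 5 others of Gja1 gave 0.03 to 0.11. For Cldn1, another probe set at a mean of 6.62 gave 0.18 ± 0.08 (SE, limma adjusted p = 0.241). Its dim ones, at means of 4.23 and 4.13, gave 0.002 and 0.03.

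The treatment comparison set 10 tamoxifen animals against 10 placebo animals, and 0 junction genes passed (limma called 0.008% of genes, 1 gene, and 6 of the 10 were below 0.05 unadjusted, against 13.9% of all genes). Its model held no outcome term, so treatment and outcome are not separated here either. Of the 10 differences, 8 were negative, with a median of -0.71 against 0.00 over all genes. Gjb2 differed by -1.36 ± 0.48 (SE, adjusted p = 0.21), Cldn8 by -1.08 ± 0.30 (0.146), Cldn7 by -0.85 ± 0.35 (0.287) and Epcam by -0.80 ± 0.27 (0.188). Cdh1 differed by -0.76 ± 0.28 (SE, adjusted p = 0.228) and Cldn3 by -0.66 ± 0.24 (0.217). Cldn4 differed by 0.04 ± 0.15 (SE, adjusted p = 0.932), with a 95% interval from -0.27 to 0.35. Without placebo animals 7, 8 and 9 the treatment differences were -0.39 for Gjb2, -0.69 for Cldn8, -0.20 for Cldn7, -0.40 for Epcam, -0.31 for Cdh1 and -0.23 for Cldn3 (limma adjusted p from 0.276 to 0.761), and 0 genes were called. With the mean of 4 luminal keratins as a covariate, Epcam differed by -0.28, Cldn7 by -0.26 and Gjb2 by -0.84 (adjusted p = 0.886, 0.999 and 0.906).

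**Figure D3:**
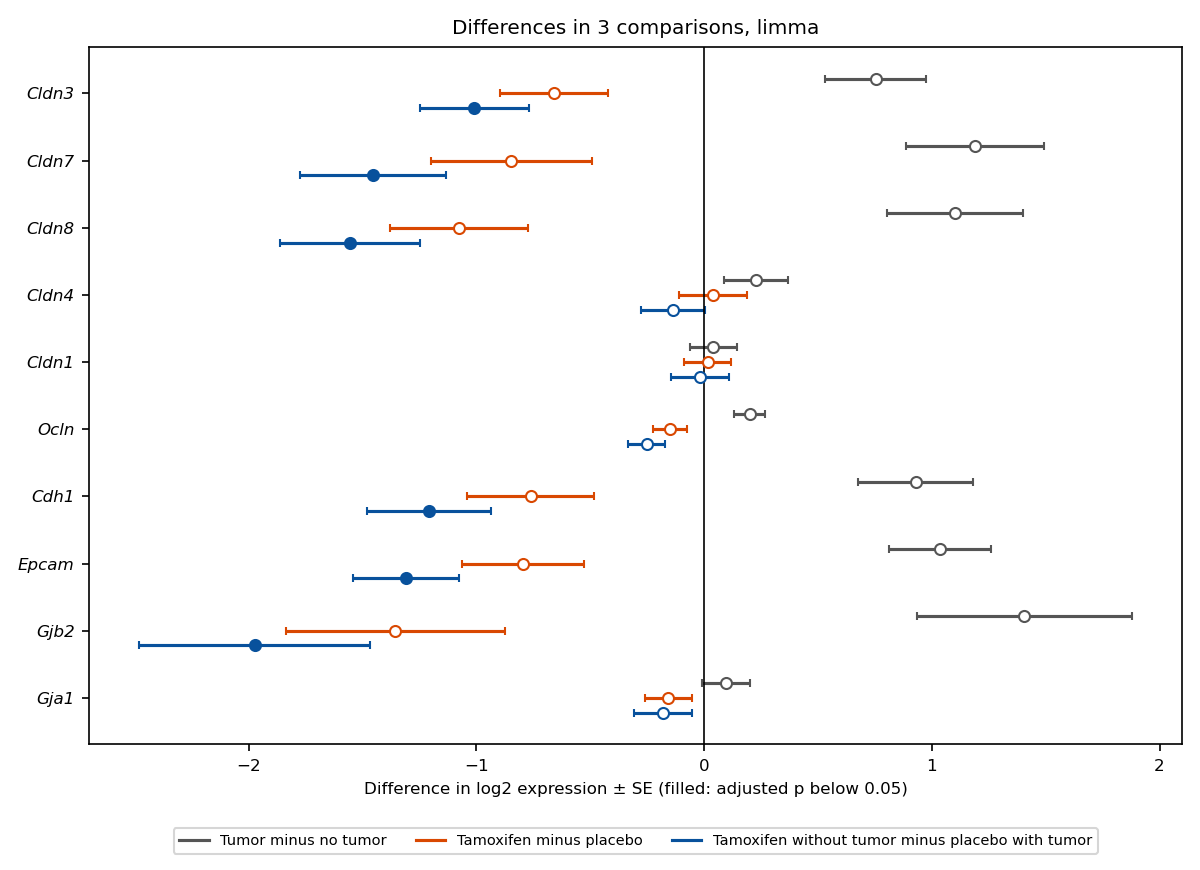
Log2 differences of the 10 junction genes with their SE in 3 limma comparisons, with filled points where the adjusted p was below 0.05. The only filled points belong to tamoxifen animals without tumors minus placebo animals with tumors, for Cldn3, Cldn7, Cldn8, Cdh1, Epcam and Gjb2.

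The last main comparison set 7 tamoxifen animals that stayed free of tumors against 7 placebo animals that developed them. These differ in both treatment and outcome, which cannot be told apart here, and they also entered both comparisons above. Between them 6 of the 10 junction genes fell and 0 rose, where limma called 4.63% of all genes tested (579 genes) and 2.4% as lower. At an unadjusted p below 0.05 were 7 of the 10 and 20.4% of all genes. The members' median difference was -1.11, against 0.01 over all genes. Epcam was 2.48-fold lower in the tamoxifen group (limma adjusted p = 0.00388), Cldn8 2.94-fold (0.00778), Cldn7 2.74-fold (0.0153), Cdh1 2.31-fold (0.0174) and Cldn3 2.01-fold (0.0222). Gjb2 was 3.93-fold lower (limma adjusted p = 0.0335), from a mean of 8.40 ± 1.69 to 6.42 ± 0.14 (SD, n = 7 each). The tamoxifen means of Gjb2 and Cldn8 (6.76) are below the filter level, which leaves both folds imprecise. Gjb2 passed the filter only through placebo animals with later tumors. Its call, counted among the 6, is therefore not independent of the filter. All 7 tamoxifen animals were below the placebo median for each of these 6 genes. The 6 were picked by their calls in this same comparison, so this adds no support. It also held for Ocln, which was not called. For Cldn7, Cldn8 and Epcam the groups did not overlap, as held in this direction for 1.13% of all genes.

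Ocln differed by -0.25 ± 0.08 (SE, limma adjusted p = 0.0795), and its second probe set fell by 0.79 ± 0.18 (0.017). Cldn4 differed by -0.14 ± 0.14 (SE, adjusted p = 0.631), Gja1 by -0.18 ± 0.13 (0.444) and Cldn1 by -0.02 ± 0.13 (0.954). The second Epcam probe set differed by -0.13 ± 0.06 (SE, adjusted p = 0.285). The Cldn1 probe set at a mean of 6.62 differed by -0.23 ± 0.09 (SE, limma adjusted p = 0.145), and its dim ones by 0.04 and -0.006.

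Without placebo animals 7, 8 and 9, 4 of the 6 calls held: Epcam (-0.90, limma adjusted p = 0.0369), Cldn8 (-1.14, 0.0166), Cldn7 (-0.71, 0.0312) and Gjb2 (-0.70, 0.0282). The Gjb2 call is again not independent of the filter, since only placebo animals with later tumors carried the gene past it. Cdh1 (-0.70, adjusted p = 0.105) and Cldn3 (-0.48, 0.13) no longer passed, and limma called 1.08% of all genes. The Gjb2 call was also lost on leaving out placebo animal 7, 8 or 9 alone or tamoxifen animal 3, 4, 5 or 6 (differences -1.99 to -1.57, adjusted p from 0.0552 to 0.069), and that of Cldn3 without tamoxifen animal 4 (-0.95, adjusted p = 0.0512). Without placebo animal 9, Ocln passed (-0.30, adjusted p = 0.0387).

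Within placebo animals 0 members passed between outcomes (limma called 0.008% of genes, 1 gene, and unadjusted 8 of the 10 and 14.1% of genes were below 0.05). Epcam differed by 1.30 ± 0.30 (SE, adjusted p = 0.135), Cldn7 by 1.68 ± 0.41 (0.15), Cldn4 by 0.69 ± 0.18 (0.151) and Gjb2 by 1.81 ± 0.66 (0.235). Cldn3, Cldn4, Cldn7 and Epcam did not overlap between the 7 placebo animals with tumors and the 3 without, as held in this direction for 2.05% of genes. Without placebo animals 7, 8 and 9 the differences were 0.89 for Epcam, 0.94 for Cldn7, 0.47 for Cldn4 and 0.53 for Gjb2 (limma adjusted p = 0.386, 0.156, 0.532 and 0.487), with 0 genes called.

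Within tamoxifen animals 0 members passed (0.008% of genes called, 1 gene, and unadjusted 0 of the 10 and 2.1% of genes below 0.05). The differences between outcomes were 0.41 ± 0.30 (SE) for Epcam, 0.42 ± 0.40 for Cldn8, 0.35 ± 0.41 for Cldn7 and -0.11 ± 0.18 for Cldn4, each at a limma adjusted p of 1.00. Gjb2 was the 1 member that did not overlap, with 3 of 3 tumor animals above all 7 without, as held for 0.576% of genes in this direction. Its means differed by 0.25 ± 0.66 (SE). The lowest Gjb2 level with a tumor was 6.63 and the highest without was 6.60, and every tamoxifen gland was below the filter level.

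The interaction of treatment and outcome, which tests whether the outcome difference was the same under both treatments, was passed by 0 members and 0 genes (limma, 0%), and unadjusted 2 of the 10, Cldn4 and Cldn7, and 4.52% of genes were below 0.05. Its values were -1.57 ± 0.93 (SE) for Gjb2, -1.34 ± 0.59 for Cldn7, -0.93 ± 0.50 for Cdh1, -0.88 ± 0.42 for Epcam and -0.80 ± 0.26 for Cldn4, all at adjusted p = 0.938. These became -0.29, -0.59, -0.42, -0.48 and -0.58 without placebo animals 7, 8 and 9. Between treatments, animals with tumors differed by -0.90 ± 0.30 (SE) for Epcam and -1.73 ± 0.66 for Gjb2 (limma adjusted p = 0.703 each, 0 genes called, with 6 of the 10 and 7% of genes below 0.05 unadjusted). Cldn3, Cldn7 and Epcam did not overlap there, as held in this direction for 1.98% of genes. On leaving out placebo animals 7, 8 and 9 the values were -0.49 for Epcam and -0.45 for Gjb2. In animals without tumors the same genes differed by -0.01 ± 0.30 and -0.16 ± 0.66 (SE, limma adjusted p = 0.999 each), and Cldn4 by 0.55 ± 0.18 (0.536), with 0 members and 0.064% of genes called, and 1 member and 5.26% of genes below 0.05 unadjusted. In those animals Cdh1 had nearly equal means, 8.16 in both treatments.

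Keratins of luminal cells moved with the junction genes. Krt19 differed by 1.02, Krt8 by 0.84, Krt18 by 0.81 and Krt7 by 0.28 between outcomes (limma adjusted p = 0.0616, 0.107, 0.062 and 0.33). Between tamoxifen animals without tumors and placebo animals with tumors 3 of 4, all but Krt7, fell. There limma called 2.4% of all genes as lower. The mean of the 4 keratins, centred per gene, ran from -0.14 to 0.94 in placebo animals with later tumors and from -1.16 to 0.06 in those without. It ran from -0.92 to 0.36 in tamoxifen animals without tumors and from -0.26 to 0.36 in those with. Over the 20 glands it correlated with Epcam at 0.90, Cdh1 at 0.82, Cldn7 at 0.80, Cldn3 at 0.79, Cldn8 at 0.76 and Cldn4 at 0.73, but with Gjb2 at 0.60, Ocln at 0.43, Gja1 at 0.16 and Cldn1 at 0.15. Over the 17 glands without placebo animals 7, 8 and 9 it correlated with Epcam at 0.90, Cldn7 at 0.85, Cdh1 at 0.85, Cldn3 at 0.83, Cldn8 at 0.73 and Cldn4 at 0.61, but with Gjb2 at 0.32, Ocln at 0.33, Gja1 at 0.23 and Cldn1 at -0.21.

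**Figure D4:**
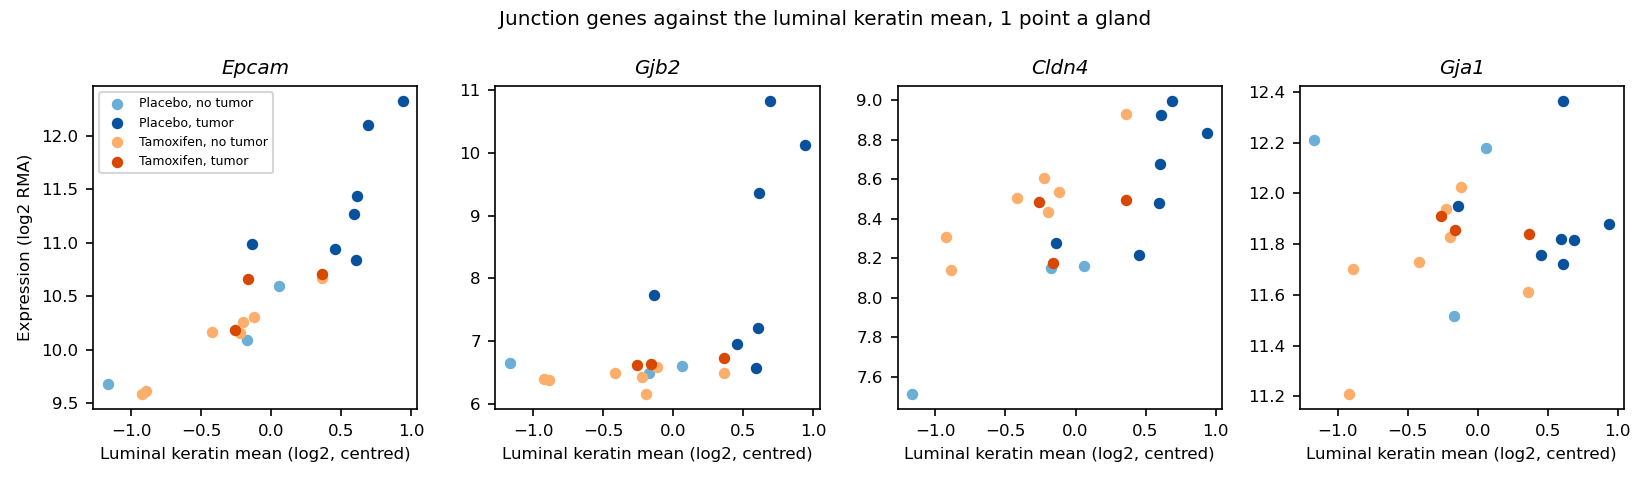
Log2 level of 4 junction genes against the mean of Krt7, Krt8, Krt18 and Krt19 (centred per gene) in each gland. Epcam lies close to a line (r = 0.90), and Gjb2 is high in placebo animals 7, 8 and 9 but not in other placebo tumor glands at a like keratin mean.

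At nearly the same keratin mean, placebo animals 9, 10 and 2 (0.61, 0.61 and 0.59) had Gjb2 levels of 9.36, 7.21 and 6.58 and Cldn7 levels of 9.06, 7.86 and 8.18. With the keratin mean as a covariate, 0 members passed between tamoxifen animals without tumors and placebo animals with tumors, and limma called 0.04% of genes (5 genes). The differences were then -0.57 for Epcam, -0.72 for Cldn7, -0.92 for Cldn8, -0.51 for Cdh1, -0.45 for Cldn3 and -1.51 for Gjb2, with adjusted p from 0.694 to 0.987 over the members. Cldn4 turned to 0.33 ± 0.12 (SE, adjusted p = 0.694).

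Milk protein genes, expressed by secretory luminal cells, moved more. Csn2, the beta-casein gene, ran from 9.23 to 14.13 in placebo animals with later tumors and from 5.18 to 7.32 in tamoxifen animals without. Between these groups 6 of 7 milk genes fell, where limma called 4.63% of all genes, and 2.4% as lower. Of the basal and myoepithelial list 2 of 7 tested genes fell in that comparison, Cnn1 (-0.65, limma adjusted p = 0.0262) and Myh11 (-0.41, 0.0372). In lists for other tissues, 5 of 6 skeletal muscle and 3 of 5 lymphocyte genes rose there. Of 7 fibroblast and matrix genes 1 fell, Fn1 (-0.85, limma adjusted p = 0.00299), while 4 of the 7 differences were positive. Of 2 tested genes listed for Schwann cells 1 fell, Sox10 (-0.77, limma adjusted p = 0.0475). The other, Mbp, was not called. Its mean was 10.55 in tamoxifen animals without tumors and 10.22 in placebo animals with tumors. Of 5 white adipocyte, 6 endothelial and 4 tested epidermal genes 0 passed. The part of any of these in the junction results was not tested.

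Other genes of the junctions were read from further lists. Between tamoxifen animals without tumors and placebo animals with tumors, 6 of 15 tested tight junction genes outside the 10 fell and 0 rose: Marveld3, a tight junction relative of occludin (-1.17, limma adjusted p = 0.0119), the scaffold gene Tjp3 (-0.96, 0.0337), Magi3 (-0.43, 0.0232), Cldn10 (-0.38, 0.0466), the polarity gene Pard3 (-0.33, 0.0496) and Amotl1 (-0.29, 0.0479). Like Gjb2, Marveld3 and Tjp3 were above the filter level on 6 arrays, all from placebo animals with later tumors, so their calls are not independent of the filter. Of 8 adherens junction genes, 1 fell, Nectin3 (-0.35, adjusted p = 0.0489). Ctnnb1, which encodes the beta-catenin that binds E-cadherin, differed by -0.07 (limma adjusted p = 0.427), and Ctnna1, the alpha-catenin gene, by -0.21 (0.111). Of 6 desmosome genes 0 passed, with Dsg2, a desmosomal cadherin, at -0.54 (limma adjusted p = 0.118) and the plaque gene Dsp at -0.57 (0.21). Of 3 other connexin genes tested 0 passed. Between outcomes 0 genes of these 4 lists passed.

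Of 5 listed partners of Epcam and membrane serine proteases with their inhibitors, 4 were tested. All 4 fell in the same 7 against 7 comparison, where limma called 2.4% of all genes as lower. These were the proteases St14 (-0.93, limma adjusted p = 0.00575) and Prss8 (-0.96, 0.0339) and their inhibitors Spint1 (-0.56, 0.0321) and Spint2 (-0.59, 0.0467). Of 9 tested epithelial transcription and splicing factors, 4 fell: Elf5 (-2.31, limma adjusted p = 0.00116), the splicing factors Esrp1 (-1.62, 0.00729) and Esrp2 (-0.97, 0.0221), and Grhl1 (-1.37, 0.0267). Elf5 was also the 1 gene of this list called between outcomes (1.71, adjusted p = 0.0456). Of 6 tested genes for E-box repressors of Cdh1, 0 passed in either comparison. Snai2 differed by 0.34 between outcomes (limma adjusted p = 0.2) and Zeb1 by -0.07 (0.519). Whether either bears on Cdh1 was not tested.

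The genes whose levels over the 20 glands were most like the mean of the 10 junction genes were Esrp1 (Pearson r = 0.99, Spearman rho = 0.95), Kcnk1 (0.98, 0.96), Trps1 (0.98, 0.94), Irx2 (0.97, 0.94) and Esrp2 (0.97, 0.90). Without the 2 glands farthest from the median the Pearson values were 0.90 to 0.96. The single most like gene was Irx2 for Cdh1 (Pearson r = 0.98), Aldoc for Epcam (0.98), Kcnk1 for Cldn7 (0.98), Esrp1 for Cldn3 (0.97), Tmprss13 for Cldn8 (0.94) and Bcl2l15 for Gjb2 (0.98). It was Cables1 for Gja1 (0.90), Cd24a for Cldn4 (0.87), Lrrc15 for Ocln (0.87) and 2410002F23Rik for Cldn1 (0.78). For Gjb2 the rank correlation was lower, 0.68. Tgfa, whose protein the transgene adds, ran from 8.49 to 10.27 in placebo animals with later tumors and from 7.67 to 8.00 in tamoxifen animals without. Whether its probe set reads the transgene was not analysed here.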

How the data were processed

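The 10 junction genes and all other lists were chosen with earlier results of these data known. The authors deposited log2 expression values made with RMA, per the submitters' processing notes, while for its software, version and build the sources used here name nothing. Replicates are separate animals, per the labels, with 1 array each, and their number limits the precision. Of 45101 probe sets, 34958 had 1 gene symbol in the platform table, and 34754 of these matched a current RefSeq symbol. A further 932 had several symbols and 9211 had none. Genes were fitted with limma 3.58.1 in R 4.3.3 (lmFit, eBayes, two-sided, Benjamini-Hochberg over 12499 genes, threshold 0.05). The outcome and treatment models held 1 factor each, and a 4-group model gave the other contrasts. Errors are SE for differences and SD for levels. All 10 junction genes were named, with up to 3 genes per other list by smallest p between outcomes, plus called genes. Krt7, Ctnnb1 and called genes beyond 3 per list were added after their values were seen. The most like genes were those with the highest Pearson correlation. On simulated data with 12499 genes, limma recovered 100% of changes of 1 and 90% of changes of 0.5 in the outcome comparison, and 97% and 88% in the comparison of 7 against 7. There were 7 false calls in each. These rates hold for the simulated spread and need not hold for the junction genes. Cldn7, for one, differed by 1.19 ± 0.30 (SE) between outcomes and did not pass. Listed genes numbered 155, of which 143 had a probe set, and the rest are not analysed here. Alternatives covered array scaling, the filter, probe sets, the variance model, covariates, blocks and left-out animals.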

Additional observations from a re-analysis of the deposited data

Results flagged for a closer look

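A gap test within groups of 7 animals, over 20 gene and group combinations, marked 2 single glands, where chance alone marks about 1 in 20. Cldn8 was 7.36 in tamoxifen animal 5, without a tumor, and the nearest of its group was at 6.77. That gland was also the highest of its group for Cldn3, Cldn4, Cldn7, Ocln, Cdh1 and Epcam. Gja1 was 12.37 in placebo animal 10, with a later tumor, and the nearest of its group was at 11.95.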

How the results depend on the processing

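Of 226 recomputed counts of junction genes called, 217 stayed within 1.5 times the original. For every comparison but the 7 against 7 one the original was 0, where this means only that no member passed. A fall from 6 to 4 also counts as within 1.5 times, so the share is no measure of stability. The outcome count went from 0 to 1 (Epcam) with the mean of all probe sets (0.61, limma adjusted p = 0.0418) and, chosen after seeing the data, with numbers 1 to 5 and 6 to 10 as a block (1.04, 0.0448). The count between tamoxifen animals without tumors and placebo animals with tumors went from 6 to 0 with the keratin mean as a covariate. Leaving out 1 animal gave 0 to 3 for outcome, 0 to 1 for outcome within placebo animals (1 without placebo animal 10), 4 to 6 for the 7 against 7 comparison and 0 for the other 5.

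Whether the titles' replicate numbers pair animals was not settled, and the main models held no term for them. Correlations of same-numbered deviations ran from -0.10 to 0.59 for treatment numbers and from -0.22 to 0.32 for outcome numbers. For these, 7 and 1 of 20 arrays correlated best with their own number. The rate of such matches by chance was not worked out. With a replicate block the count within placebo animals went from 0 to 6 while that over all genes went from 1 to 602, and Ocln passed between the 2 groups of 7 (-0.32, limma adjusted p = 0.0471), making 7, while all genes called there went from 579 to 1647. All genes called between treatments went from 1 to 235 with that block. Between outcomes 29 genes were called, against 11 with arrays centred on their median, 14 without the filter, 45 with the block of numbers 1 to 5 and 6 to 10, and 0 with treatment or the keratin mean as a covariate.

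Of 854 recomputed gene values, 24 changed sign, all for genes that did not pass. With the keratin covariate, outcome differences were -0.0059 for Cldn1 and -0.17 for Cldn4, and 7 against 7 differences 0.039 and 0.33. Without placebo animals 7, 8 and 9, Cldn1 gave -0.073 and 0.18, and Cldn4 gave 0.081 in the 7 against 7 comparison. Gja1 gave 0.0079 there with the replicate block. Leaving out 1 animal, Cldn1 ran from -0.011 to 0.077 for outcome, from -0.017 to 0.070 for treatment and from -0.073 to 0.064 for 7 against 7, and Cldn4 from -0.063 to 0.10 for treatment.
Within numbers 1 to 5 and 6 to 10 the 7 against 7 differences were -0.88 and -1.62 for Epcam and -0.74 and -2.90 for Gjb2. The cause of these shifts was not tested.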
